A study of Homo sapiens with 6 samples.

Results

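The sites described here are the thymines of chromosomes 7, 8, 9, 10, 11 and 12 that were read as C after a pull-down of 5-formyluracil. They were chosen by chromosome alone, and they number 343 of the 967 sites in the deposited table. The DNA came from CAL-62, a long-established line of human thyroid carcinoma cells, and was sequenced in 6 libraries, 2 in each of 3 groups. Input libraries were left untreated. The other libraries came from DNA enriched with azi-BIAN, an azide-bearing reagent that reacts with the base, and were prepared either at pH 7.2, where 5-formyluracil is copied as T, or at pH 8.8, where it is copied as C. All DNA, input included, was extracted in the presence of tetrahydrouridine, a deaminase inhibitor. The values analysed are those of both pH 8.8 libraries, called library 1 and library 2. Values of input and of the pH 7.2 libraries were not analysed here, so the rate of C at these positions without the pull-down or at the lower pH is not given. The labels do not say whether the libraries come from separate cultures, so every statement holds for these libraries of 1 cell line.

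5-Formyluracil forms when the methyl group of thymine is oxidised, mainly by reactive oxygen species and ionising radiation, and TET enzymes can also make it. The changed base can pair with G as well as with A, which makes it mutagenic. Base excision repair removes it through DNA glycosylases such as SMUG1 and NTHL1. A reading of C at a T position in the pull-down at the higher pH is used as the mark of the base at single-base resolution.

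The only site among the 343 that lay in a core promoter window is shown as an example of such a thymine in its sequence. The window runs from 250 bases before to 50 bases after a RefSeq gene start of CACNB3, which encodes a beta subunit of voltage-gated calcium channels, on the plus strand of chr12:48818246-48818545 (GRCh38.p14). The capital letter marks the thymine at position 48818258, base 13 of the window and 238 bases before that start:

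CACNB3: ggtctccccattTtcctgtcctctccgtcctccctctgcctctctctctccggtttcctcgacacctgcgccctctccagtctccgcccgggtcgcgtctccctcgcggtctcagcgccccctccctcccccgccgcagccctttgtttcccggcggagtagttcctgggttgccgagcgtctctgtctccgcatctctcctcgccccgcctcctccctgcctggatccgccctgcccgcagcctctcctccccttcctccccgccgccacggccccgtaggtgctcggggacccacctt

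CACNB3 has other annotated starts upstream, so this window lies inside the gene as annotated. Its GC content was 70.0%, against a median of 58.7% over the windows of all 27305 genes in the RefSeq promoter table. Library 1 read C at this thymine in 5 of 20 reads (25%) and library 2 in 4 of 10 (40%). Over both libraries the share was 30.0% (95% Wilson interval 16.7 to 47.9%). Among all 967 sites, which include those of chromosome 8 without a listed window, 5 lay in a listed window. On chromosomes 7 and 9 to 12, whose gene starts the table lists, the 8650 windows cover 0.337% of the annotated length.

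Whether the sites follow the length of the chromosomes was the first comparison. Chromosomes 9 and 11 held more sites than their length predicts, and chromosomes 7, 8, 10 and 12 did not pass the test. Chromosome 11 held 69 sites, 1.63 times the number that its annotated length predicts (exact 95% interval 1.28 to 2.04, adjusted exact binomial p = 0.000229). Chromosome 9 held 63 (ratio 1.45, interval 1.13 to 1.84, adjusted exact binomial p = 0.00716). Over all 24 chromosomes, 15 passed this test, which is 62.5%, with 7 above and 8 below expectation. Those below include chromosome Y, which held 0 sites against 17.9 expected and whose length enters all expected numbers. A call on 2 of 6 chromosomes is thus no more than the genome-wide rate. Coverage at positions other than the sites was not analysed here. Whether sequencing depth bears on the number of sites per chromosome or arm was therefore not tested. Expected numbers come from the length between the first and last annotated gene, and p-values were adjusted over the 24 chromosomes by Benjamini-Hochberg. The test counts every site as independent. Sites lay partly in runs, described below, so its p-values can be too small and its intervals too narrow.

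Chromosome 10 held 52 sites (ratio 1.24, interval 0.933 to 1.61, adjusted exact p = 0.137). Chromosome 8 held 55 (ratio 1.21, interval 0.918 to 1.56, adjusted exact p = 0.170). Chromosome 12 held 48 (ratio 1.15, interval 0.853 to 1.51, adjusted exact p = 0.332), and chromosome 7 held 56 (ratio 1.12, interval 0.854 to 1.45, adjusted exact p = 0.399). All 6 ratios lay above 1 in this comparison, but that of chromosome 12 was 0.971 on gene number, and at 15 reads or more in each library chromosomes 10 (0.609) and 12 (0.612) lay below 1. In sites per Mb these chromosomes took places between 6 (chromosome 11) and 12 (chromosome 7) of 24. Together they carried 35.5% of all sites (exact interval 32.5 to 38.6%) on 27.4% of the annotated length, or 0.406 sites per Mb. Chromosomes 1 to 6 had 0.199 sites per Mb and chromosomes 16 to 22 had 0.633.

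**Figure D1:**
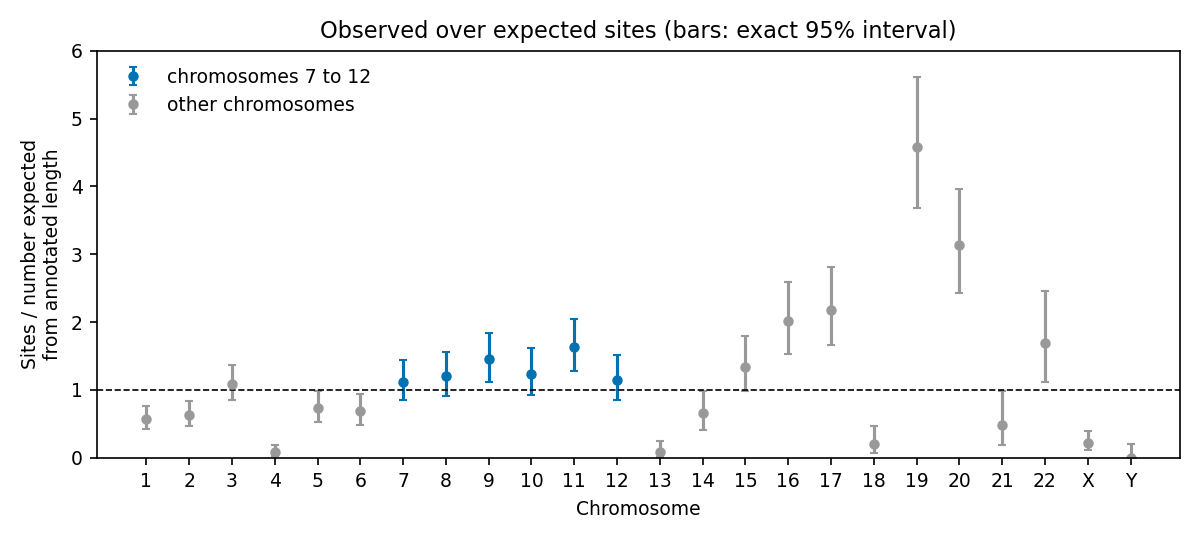
Ratio of observed to expected sites for every chromosome, with the exact 95% interval of each ratio as a bar and the value 1 as a line. The ratios of chromosomes 7 to 12 lie between 1.12 and 1.63, and only the intervals of chromosomes 9 and 11 among them lie above 1.

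The number of genes gave another order. Chromosome 11 is gene-dense, with 9.63 protein-coding genes per Mb, and its ratio was 1.10 when gene number set the expectation (adjusted exact p = 0.453), which ends its call. Among the 265 sites of the whole table with at least 15 reads in each library, the ratio of chromosome 11 was 1.29 (adjusted exact p = 0.335). Chromosome 9, with 5.62 genes per Mb, kept its excess (ratio 1.68, adjusted exact p = 0.000406). Chromosomes 8 and 10 passed the test on that basis, with ratios of 1.6 (adjusted exact p = 0.00312) and 1.47 (adjusted exact p = 0.0230). Counted per 100 protein-coding genes, chromosome 9 held 8.10 sites, chromosome 8 held 7.70, chromosome 10 held 7.08, chromosome 7 held 5.97, chromosome 11 held 5.30 and chromosome 12 held 4.69. The strands were nearly even, with 50.1% of the 343 thymines on the plus strand, from 23 of 55 on chromosome 8 to 37 of 63 on chromosome 9.

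The place of the sites along the arms came next. Each chromosome was split at its longest stretch without an annotated gene, since no centromere positions were used here. Chromosomes 8 and 9 held fewer sites on the short arm than its length predicts. On chromosome 8, 5 of 55 sites (9.09%, exact interval 3.02 to 19.95%) lay on the short arm against 30.6% expected (adjusted exact binomial p = 0.00113). That is 0.115 sites per Mb on the short arm against 0.508 on the long arm. On chromosome 9, 12 of 63 (19%, interval 10.2 to 30.9%) lay on the short arm against 35.8% expected (adjusted exact p = 0.0180), or 0.278 against 0.658 sites per Mb. Of the 20 chromosomes with at least 10 protein-coding genes on each side of the split, 6 passed this test (30%), 3 with more and 3 with fewer sites on the short arm. The call on 2 of 6 chromosomes is again close to that rate. This test too counts sites as independent, but 18 of the 55 sites of chromosome 8 lay in 1 window of 5 Mb. Its p-values can therefore be too small and its intervals too narrow.

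The short arm of chromosome 8 holds 292 of its 714 protein-coding genes, or 40.9%, and its share of sites lay 31.8 percentage points below that (a difference of -31.8, adjusted exact p = 5.43e-06). All 5 of its sites are named here after their values were seen. The first, at position 27048433, lay 420 bases from the microRNA gene MIR548H4, with C in 6 of 20 reads (30.0%) in library 1 and 8 of 18 (44.4%) in library 2. The next lay in SFRP1, which encodes a secreted antagonist of Wnt signalling (position 41295229), at position 42216645 outside genes, in CHRNB3, a nicotinic acetylcholine receptor subunit gene (position 42716228), and at position 43036868 near HOOK3, which encodes a microtubule-binding linker protein. Thus 4 of the 5 lay at or beyond position 41295229, near the split at 43540928 to 46549088. With at least 15 reads required in each library, the difference from length on chromosome 8 was -24.4 points and its call ended (adjusted exact p = 0.126).

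On chromosome 9 the short arm holds 27.8% of the protein-coding genes, and against gene number the call ended (difference -8.72 points, adjusted exact p = 0.396). The other 4 chromosomes did not pass the test. Chromosome 7 had 14 of 56 sites on the short arm (25% against 37.1% expected, adjusted exact p = 0.143). Chromosome 10 had 10 of 52 (19.2% against 29.7%, adjusted exact p = 0.232). Chromosome 11 had 21 of 69 (30.4% against 38.5%, adjusted exact p = 0.271), and chromosome 12 had 13 of 48 (27.1% against 26.4%, adjusted exact p = 0.968). Chromosome 12 was thus the only one of the 6 whose short arm was not below its expected share, and its difference of 0.73 points changed sign under other settings.

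**Figure D2:**
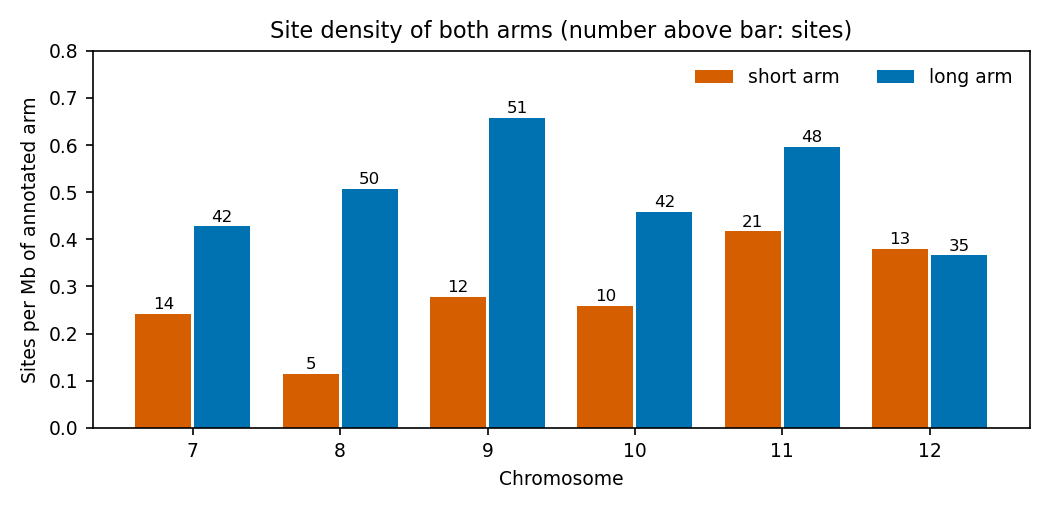
Sites per Mb of annotated arm for the short and long arms of chromosomes 7 to 12, with the number of sites above each bar. The bars of chromosomes 8 and 9 differ most, at 0.115 against 0.508 and 0.278 against 0.658 sites per Mb.

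Within the arms, the spread of the sites was set beside that of the genes. Each arm was cut into 5 equal sections, and both arms were added, from the section next to the split (inner) to the section at the chromosome end (outer). No test was run on these counts, and each comes with an exact 95% interval. Over all 6 chromosomes, the outer section held 110 of 343 sites (32.1%, interval 27.2 to 37.3%) against 27.6% of the protein-coding genes. Chromosome 9 was the most uneven, with 35 of 63 sites (55.6%, interval 42.5 to 68.1%) in the outer section, which holds 38.4% of its genes. Chromosome 8 had 20 of 55 there (36.4%, interval 23.8 to 50.4%) with 29.1% of its genes.

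Chromosomes 7, 10, 11 and 12 had other outlines. On chromosome 11 the inner section led, with 27 of 69 sites (39.1%, interval 27.6 to 51.6%) and 36.7% of the genes. On chromosome 7 the inner section held 17 of 56 sites (30.4%, interval 18.8 to 44.1%) with 16.2% of the genes. On chromosome 10 the section next to the outer one held 18 of 52 sites (34.6%, interval 22 to 49.1%) with 24.3% of the genes. The middle section of chromosome 12 held 1 of 48 sites (2.08%, interval 0.0527 to 11.1%) with 8.40% of the genes, the lowest share of any section.

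**Figure D3:**
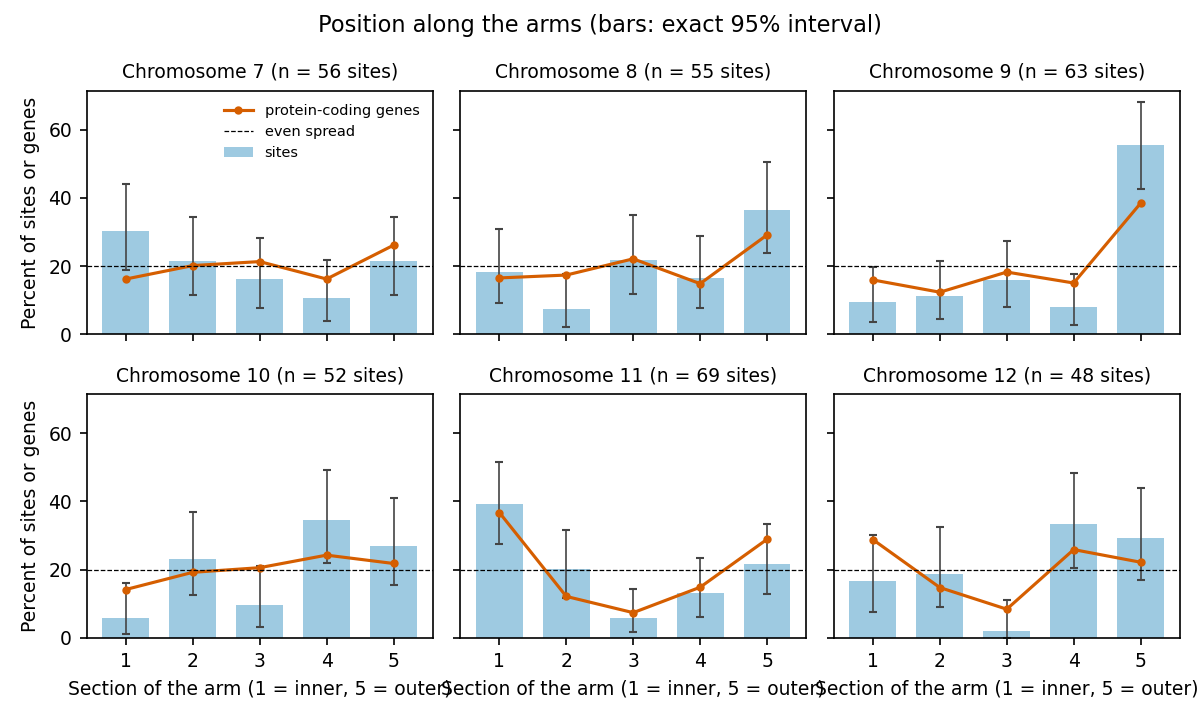
Share of the sites of each chromosome in 5 equal sections of its arms, from inner to outer, as bars with exact 95% intervals, with the share of protein-coding genes as a line and an even spread of 20% as a dashed line. The outer section of chromosome 9 reaches 55.6% of sites, and the middle section of chromosome 12 has 2.08%.

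Runs of sites were most marked on chromosomes 8 and 9, while most sites of every chromosome lay outside its densest 5 Mb window. On chromosome 8, the 5 Mb window with most sites ran from position 139830351 to 144558975, near the end of the long arm, and held 18 of 55 sites (32.7%) in 3.45% of the length and with 14% of the protein-coding genes. Protein-coding genes with a site there were TRAPPC9 (part of the TRAPP vesicle tether), SLC45A4, PTP4A3 (a phosphatase overexpressed in metastatic cancers), IQANK1, PLEC (plectin, a linker of intermediate filaments), OPLAH (5-oxoprolinase of the glutathione cycle), ZFTRAF1 and ARHGAP39. On chromosome 9, the window from 124866492 to 129760898 held 17 of 63 sites (27.0%) with 10.7% of the genes. It took in ARPC5L, an Arp2/3 complex subunit gene, GAPVD1, RALGPS1, GARNL3, TTC16, CERCAM, PHYHD1, MIGA2 and PRRX2. Both windows lay on the long arm.

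The densest windows of the other chromosomes held fewer sites. On chromosome 11, 11 of 69 sites (15.9%) lay between 60933404 and 64231479, with 13% of the genes. On chromosome 12, 8 of 48 (16.7%) lay between 108427916 and 113141343, with 6.84% of the genes, in UNG, UBE3B, GPN3, ACAD10, TRAFD1 and RPH3A among others. On chromosome 7, 8 of 56 (14.3%) lay between 97438905 and 101324444, with 11% of the genes. On chromosome 10, 7 of 52 (13.5%) lay between 100143416 and 104243956, in PKD2L1, NT5C2 (a cytosolic nucleotidase), NEURL1 and SH3PXD2A. Windows were placed where they held most sites, so these counts are a description without a test.

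Windows of 1 Mb showed how short some of these runs are. Chromosome 8 had 8 sites between 141126954 and 142040102, a stretch whose 1 Mb window has 5 protein-coding genes (0.700% of the chromosome's genes) and 14.5% of its sites. Of these 8, the sites in SLC45A4 (3 of 13 reads with C in library 1 and 3 of 11 in library 2) and PTP4A3 (4 of 10 and 4 of 12) lay in protein-coding genes. Another stretch of chromosome 8, from 143734313 to 144558975, also held 8 sites, 7 of them in annotated genes, among them IQANK1, PLEC, OPLAH, ZFTRAF1 and ARHGAP39. Chromosome 9 had 8 sites between 128924203 and 129760898, where the window has 20 protein-coding genes. Chromosome 11 had 7 between 63625842 and 64231479, all of them in genes, with ATL3, RTN3 and MACROD1 with 2 sites each and DNAJC4 with 1. ATL3 encodes an atlastin and RTN3 a reticulon, both of which shape the tubules of the endoplasmic reticulum, and their genes are neighbours. Chromosome 7 had 6 sites in 1 Mb and chromosome 12 had 5, the latter in BAZ2A, ATP5F1B and NEMP1 and outside genes. Within 10 kb, the most were 3 sites, in VWF on chromosome 12 and outside genes between 47685807 and 47692474 of chromosome 7.

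Long stretches without a site stood opposite these runs. The first 27.0 Mb of chromosome 8 had none, although 194 protein-coding genes lie there and 10.3 sites would fall there at the chromosome's own mean density. All 25 defensin genes of chromosome 8, which encode small antimicrobial peptides, lie on this arm, with a median distance of 19.6 Mb to the nearest site. That none of them held a site follows from the empty stretch and is no separate result. On chromosome 12, no site lay between 76265272 and 103621560 (27.4 Mb, 100 protein-coding genes). On chromosome 11, none lay between 96058465 and 116559744 (20.5 Mb, 100 genes). The longest gap of all, 31.4 Mb on chromosome 9 between 41232803 and 72583278, takes in the gene-free stretch at which the arms were split and holds only 40 protein-coding genes. Chromosomes 7 and 10 had no gap above 15.2 Mb and 14.3 Mb. Coverage at positions other than the sites was not analysed here, so whether these stretches were sequenced deeply enough to show a site was not tested.

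**Figure D4:**
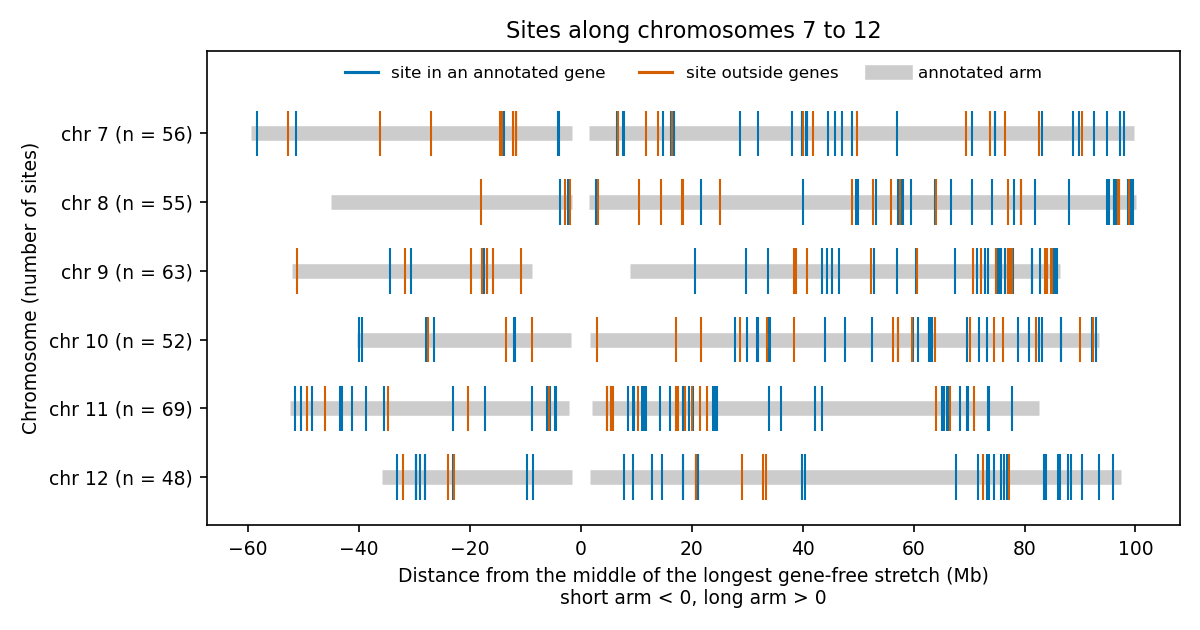
Every site of chromosomes 7 to 12 by its distance in Mb from the middle of the longest gene-free stretch of its chromosome, with annotated arms in grey and sites in genes and outside genes in separate colours. Sites crowd at the ends of the long arms of chromosomes 8 and 9, and the first 27.0 Mb of chromosome 8 are empty.

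Gene content was described next. Of the 343 sites, 228 (66.5%, exact 95% interval 61.2 to 71.5%) lay in an annotated gene, while genes cover 57.9% of the annotated length of these chromosomes. On the other chromosomes the share was 65.5% of 624 sites, with 53.0% of the length in genes. By the first class that applies, 185 lay in protein-coding genes, 38 in genes of long non-coding RNAs, 5 in other genes and 12 within 1 kb of a gene, and 103 were intergenic. Exons, introns and UTRs could not be assigned from the gene table used here.

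Chromosome 12 had the highest share in genes, 39 of 48 (81.3%, interval 67.4 to 91.1%) against 60.8% of its length. Chromosome 11 had 49 of 69 (71.0%, interval 58.8 to 81.3%) against 59.1% of its length. Chromosomes 7 to 10 lay between 60.3 and 63.5%, and the intervals of all 6 overlapped. The surroundings of the sites were gene-dense on every chromosome. The median site had 28 annotated genes within 500 kb, against 17 around positions taken every 10 kb. The site in the densest surroundings, on chromosome 7, had 108 genes within 500 kb, and the site in the sparsest, also on chromosome 7, had 3.

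A site was held by 233 genes, of which 172 were protein-coding, 53 of long non-coding RNAs and 8 of other types. The protein-coding ones were 3.13% of the 5489 on these chromosomes, and their median length was 82.5 kb against 24.6 kb over all of them. A longer gene has more positions that can hold a site, so this contrast alone says little about the sites. Large families of short genes held none. On chromosome 11, 0 of 171 olfactory receptor genes held a site. They make up 13.1% of its protein-coding genes, and their median distance to a site was 0.803 Mb. The 27 keratin genes of chromosome 12 and the 17 interferon genes of chromosome 9 held none either. The length that these families cover was not computed, so counts of 0 cannot be set against the number that length predicts. These families were chosen after the genes with a site were known.

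The 6 gene lists, of thyroid differentiation, carcinoma drivers, DNA repair and base oxidation, common fragile sites, homeobox clusters and channels of excitable cells, had 107 members on these chromosomes, and 4 of them (3.74%) held a site, close to the 3.13% of protein-coding genes in general. The list of common fragile site genes had 2 of 17. These genes are long, with a median of 1307 kb against 24.6 kb over all protein-coding genes, and they sum to 24224 kb. Their share per gene is therefore not comparable with that of protein-coding genes in general. Over their whole length, these 6 chromosomes held 0.406 sites per Mb. At that density, more than 2 sites would fall in the summed length of the 17 genes, so the list shows no excess by length. This was not tested. CNTNAP2, a cell adhesion gene of neurons and among the longest human genes (2304 kb), held a site at position 148158339 of chromosome 7, with C in 7 of 25 reads (28.0%) in library 1 and 5 of 21 (23.8%) in library 2. DPP6, which encodes an auxiliary subunit of potassium channels (1146 kb), held a site at position 154284665 of chromosome 7, with 5 of 18 (27.8%) and 5 of 17 (29.4%). In both genes the libraries gave shares within a few points of each other.

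The lists of thyroid differentiation and of repair and oxidation had 1 member each with a site. TG, the gene of thyroglobulin, the precursor of thyroid hormone, was 1 of 6 thyroid differentiation genes, and its site at position 133091504 of chromosome 8 had C in 8 of 32 reads (25%) in library 1 and 4 of 10 (40%) in library 2. SLA overlaps TG at that position. UNG, whose product removes uracil from DNA, was 1 of 15 listed genes of DNA repair and base oxidation, and its site at position 109104316 of chromosome 12 had 8 of 23 (34.8%) and 4 of 13 (30.8%). None of the 29 listed carcinoma drivers, the 20 HOXA and HOXC genes (embryonic patterning factors) or the 20 listed voltage-gated channel genes held a site. In that order, these lists sum to only 2493, 183 and 4687 kb. These chromosomes held 0.406 sites per Mb, so few sites would fall there by length, and counts of 0 say little. These counts depend on which genes were listed: CACNB3, CHRNB3, the glutamate transporter gene SLC1A2, the glutamate receptor gene GRIK4, the Hedgehog receptor gene PTCH1 and the repair gene SPIDR held a site and are on none of the lists. They are named after their sites were seen.

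Some other genes with a site are given by role. The groups below hold only genes with a site and were drawn up after those genes were known, so their counts show no theme, and each value is the C share with the reads of both libraries added. Of autophagy genes, AMBRA1, ATG16L2 and ULK1 held sites at 24.5, 29.6 and 44.4%. Vesicle coat and tether genes were 6, with shares from 20.8 to 37.0%: the exocyst genes EXOC4 and EXOC6, TRAPPC9, the COPI coat genes ARCN1 and COPZ1, and AP2A2, a subunit gene of the endocytic AP2 adaptor. Actin genes were 5, with 22.9 to 39.1%: ARPC1A and ARPC5L of the Arp2/3 complex, DOCK1, ARHGAP39 and FNBP1.

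The remaining groups were of nuclear, mitochondrial and ubiquitin pathway genes. Chromatin and transcription genes were 6, with 23.5 to 34.8%, among them EHMT1, a histone H3 lysine methyltransferase gene, BAZ2A, which encodes a subunit of the nucleolar remodelling complex, and TAF6, a subunit gene of TFIID. Mitochondrial protein genes were 9, with 24 to 32.3%, among them ATP5F1B, the beta subunit gene of ATP synthase, and PRDX3, a mitochondrial peroxiredoxin gene. Ubiquitin pathway genes were 6, with 27.0 to 42.3%, among them the ligase gene UBE3B and the deubiquitinase gene VCPIP1. Mitosis and centrosome genes were 5, with 21.4 to 32.6%, among them INCENP of the chromosomal passenger complex and CIT, the citron kinase gene of cytokinesis.

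Genes with more than 1 site were 17, of which 16 held 2 and 1, VWF, held 3. Far apart in the same gene lay the sites of TRAPPC9 (526408 bases apart), ADK, the adenosine kinase gene (309649 bases), the non-coding MIR100HG (246353 bases), MACROD1 (107909 bases), EHMT1 (59516 bases) and CAMK1D, a calmodulin-dependent kinase gene (50678 bases). In EHMT1, the site at 137699488 had C in 5 of 22 reads in library 1 and 10 of 24 in library 2, and the site at 137759004 had 5 of 16 and 4 of 13. In ADK, the site at 74238048 had 3 of 13 and 8 of 19, and the site at 74547697 had 4 of 10 and 6 of 17. ATL3 and the overlapping non-coding gene LNCROPM shared the same 2 sites, at 63625842 and 63639982 of chromosome 11, 14140 bases apart. RTN3 and ARPC1A held theirs 8533 and 3510 bases apart.

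The other genes held theirs close together. Over the 6 chromosomes, 11 pairs of neighbouring or nearby sites lay within 50 bases, with a median distance of 5 bases, and 8 of the 11 were on the same strand. They took in 19 sites (5.54%), against 64 of 624 (10.3%) on the other chromosomes; the difference was not tested. NEMP1, a nuclear envelope protein gene, held 2 adjacent thymines at 57080655 and 57080656 of chromosome 12, and both had C in 4 of 17 reads in library 1 and 5 of 19 in library 2. VWF, which encodes the platelet-tethering von Willebrand factor of blood plasma, held 3 sites within 28 bases at 6121701, 6121706 and 6121729, with 24 reads in library 1 and 14 in library 2 at each. Reads can span all of such a group, so the counts of its members are not independent.

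Closely spaced pairs also lay in EXOC4 (positions 134014170 and 134014175 of chromosome 7), DOCK1, a Rac activator gene (126925610 and 126925614 of chromosome 10), and SHANK2, a postsynaptic scaffold gene (70947384 and 70947398 of chromosome 11, on opposite strands). GARNL3 held a pair 70 bases apart and SLC2A14, a glucose transporter gene, a pair 238 bases apart, each on opposite strands. SLC2A14 has a near-identical neighbour, SLC2A3, so the place of its reads is uncertain. Pairs outside genes lay at 47692469 and 47692474 of chromosome 7, at 126887843 and 126887857 of chromosome 9 (1965 bases from ZBTB34), and at 57244225 and 57244238 and at 57985617 and 57985622 of chromosome 11. The typical spacing was far wider, with a median distance of 925 kb between neighbouring sites, from 531 kb on chromosome 9 to 1362 kb on chromosome 10.

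The strand of the thymine was set against the strand of its gene where the promoter table gives one. Of 141 such sites, 78 lay on the coding strand and 63 on the template strand (55.3% coding, exact interval 46.7 to 63.7%, exact binomial p = 0.238). Over all chromosomes, 226 of 438 lay on the coding strand (51.6%, exact p = 0.535). No strand preference was detectable at these numbers, and shares from 46.7 to 63.7% remain within the interval. Gene starts of chromosome 8 are not in the table, so its sites are missing from this comparison.

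Distances to gene starts were mostly long. For the 288 sites on chromosomes with a start table, the median distance to the nearest start was 20.5 kb, and 83 (28.8%) lay within 10 kb. Within 1 kb of a start lay 8 sites, the CACNB3 site shown above among them. The others, chosen after their values were seen, were near CRB2, a cell polarity gene (221 bases, 123369000 of chromosome 9), OR1L3 (322 bases), LOC124902510 (469 bases), HIP1, a clathrin adaptor gene (608 bases, 75612424 of chromosome 7), LOC124902783 (897 bases), DNAJC4 (931 bases) and PVRIG, an immune receptor gene (932 bases). CRB2 had C in 4 of 13 reads (30.8%) in library 1 and 5 of 16 in library 2, and HIP1 had 5 of 18 (27.8%) and 4 of 11 (36.4%). A listed start can lie inside a gene as annotated. From start to end of the annotated gene, the CRB2 site lay at 56.9% and the HIP1 site at 61.5%. Along gene bodies, the 133 sites with a known body position fell 20, 41, 21, 31 and 20 into 5 equal parts from the start to the end.

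The C share was then compared between sites, chromosomes and libraries. Library 1 had a mean of 28.7% ± 6.66 over the 343 sites and library 2 one of 29.8% ± 6.63, where ± is the SD across sites. Averaged over libraries this is 29.2% ± 0.773 (SD, n = 2 libraries). The other chromosomes had 29.5% ± 0.889 (SD, n = 2). The 6 chromosomes lay close together, from 28.2% ± 1.59 on chromosome 11 to 30.6% ± 0.0843 on chromosome 10 (SD, n = 2). Chromosome 7 had 30.1% ± 0.467, chromosome 12 had 29.2% ± 1.53, chromosome 8 had 29.1% ± 2.55 and chromosome 9 had 28.7% ± 0.444. Libraries did not rank the chromosomes alike: chromosome 8 had 27.3% in library 1 and 30.9% in library 2, next to lowest and highest of the 6.

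Coverage was 16.8 ± 5.6 reads per site (SD over sites) in library 1, from 10 to 45, and 15.5 ± 4.97 in library 2, from 10 to 48. Reads at all sites of the table numbered 16795 for library 1 and 14756 for library 2, of which 5749 and 5305 fell on the 343 sites. The ratio of library 1 to library 2 was 1.23 on chromosome 8, 1.12 on chromosome 12, 1.11 on chromosome 11, 1.07 on chromosome 10, 1.02 on chromosome 9 and 0.987 on chromosome 7. Among the 23 chromosomes with a site, chromosome 8 stood in place 4 and chromosome 7 in place 22. On chromosome 8, which also had the widest gap in C share between libraries (3.61 points), 39 of 55 sites had more reads in library 1. Whether its higher coverage in library 1 bears on its lower C share there was not tested.

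**Figure D5:**
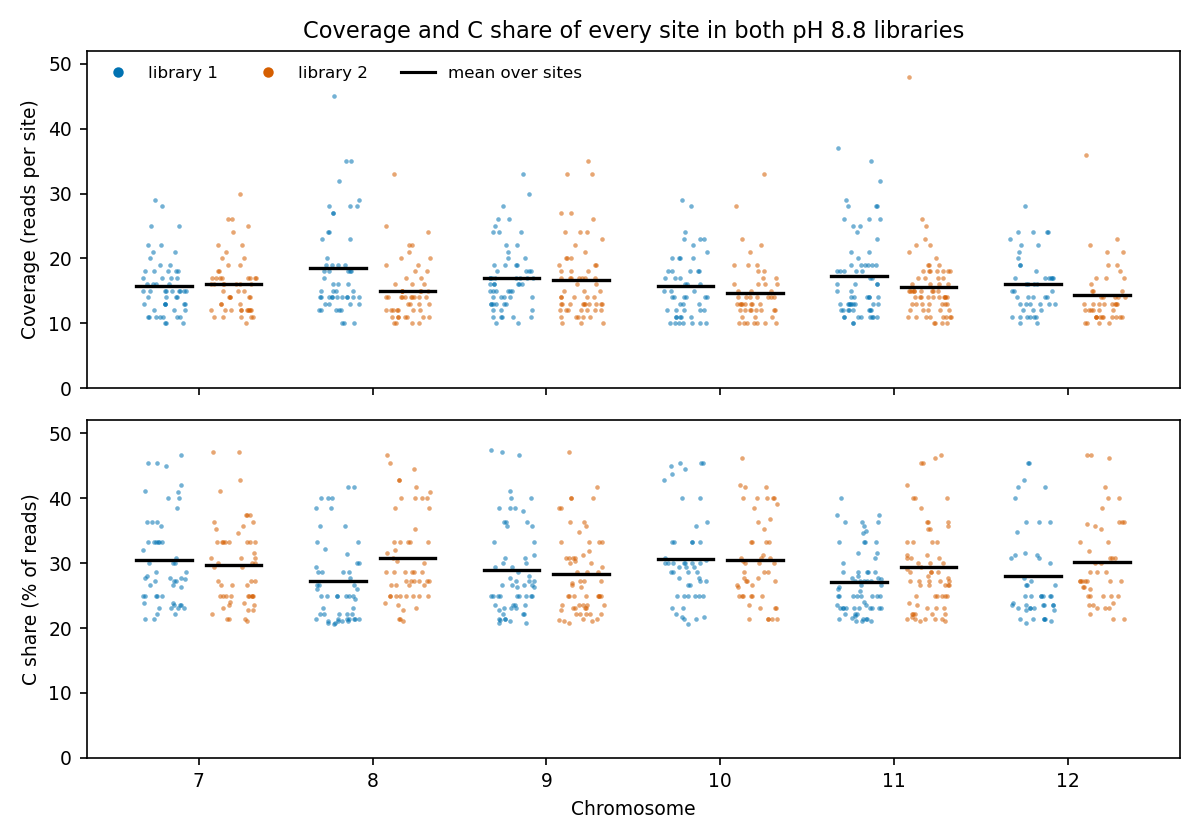
Coverage in reads and C share in percent of every site on chromosomes 7 to 12, in library 1 and library 2, with the mean over sites as a line. All points lie at or above 10 reads and between 20.7 and 47.4% C, and the means of the 6 chromosomes differ by less than the spread of their sites.

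The lower edges of the values are shared by all sites. No site had fewer than 10 reads or fewer than 3 C reads in a library, and shares lay between 20 and 50%. The number of C reads was the lowest that these limits allow at that coverage for 180 sites (52.5%) of library 1 and 166 (48.4%) of library 2, and at 85 (24.8%) this held in both libraries. Coverage and C share were negatively related across the 343 sites in each library (Pearson r = -0.237 and -0.166), and the same coverage enters both measures. Between libraries, the share of a site in library 1 and in library 2 had an r of -0.0430 and the coverage an r of 0.133 over the 343 sites. These are descriptions across sites, which are not independent replicates.

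No single site differed between the libraries by the test. A two-sided Fisher exact test of C reads between libraries called 0 of 967 sites (0%) after Benjamini-Hochberg adjustment and 0 at an unadjusted p under 0.05, so 0 of the 343. The smallest unadjusted p among the 343 was 0.151, and with 10 to 48 reads and shares held between 20 and 50% the test has little room to call one. The median difference was 6.06 points, and 239 sites (69.7%) differed by at most 10. The widest difference, 25.6 points, was at position 48066712 of chromosome 8, outside genes, with C in 4 of 19 reads in library 1 and 7 of 15 in library 2. SRPK2, a splicing factor kinase gene of chromosome 7, had the next widest, with 7 of 15 and 3 of 14. Both were chosen after their values were seen.

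The sites with the highest C share over both libraries are given for each chromosome, with 95% Wilson intervals that cover counting error only, since PCR reads are not independent molecules. On chromosome 12 the highest site was in ULK1, the kinase that starts autophagy, which was also the last site of the chromosome (131904344). Library 1 had C there in 5 of 12 reads (41.7%) and library 2 in 7 of 15 (46.7%), or 44.4% in all (interval 27.6 to 62.7%). On chromosome 10 it was in GTPBP4, a nucleolar GTPase gene of ribosome biogenesis (1005336), with 8 of 18 (44.4%) and 4 of 10 (40%), or 42.9% in all (interval 26.5 to 60.9%). The lower ends of both intervals lie below the mean of all 343 sites. UBTD1, a ubiquitin-domain protein gene, followed on chromosome 10 (97533602), with 7 of 16 and 4 of 10, and then DOCK1 (126925614), with 5 of 11 and 4 of 12. On chromosome 12 ULK1 was followed by the site in the non-coding LOC105369844 and LOC105369846 (75778395), with 3 of 11 and 6 of 13, and by 1 outside genes (108427916), with 5 of 11 and 3 of 11.

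On chromosome 7 the highest site was in the non-coding gene CAV2-DT (116453793), with C in 7 of 17 reads (41.2%) in both libraries. VOPP1 (55561448) followed with 4 of 14 (28.6%) and 8 of 17 (47.1%), and RNF32-DT (156588747) with 6 of 15 and 4 of 11. On chromosome 8 it lay outside genes, 19652 bases from ODF1 (102580670), with 14 of 35 (40%) and 9 of 22 (40.9%), or 40.4% over 57 reads (interval 28.6 to 53.3%). This site was also the next to deepest of its chromosome, and its libraries nearly coincided. MAL2, a membrane trafficking gene (119208797), was the other gene among the top 3 there, with 5 of 13 and 6 of 17.

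On chromosome 9 the highest site lay outside genes, 14550 bases from LOC100128906 (104343946), with C in 4 of 12 reads and 8 of 17, or 41.4% in all. CERCAM, an endothelial adhesion protein gene (128425125), followed with 14 of 30 (46.7%) and 7 of 22 (31.8%), and the site near DIPK1B (136706568) with 9 of 19 and 10 of 33. In both CERCAM and the site near DIPK1B, library 1 was the higher. On chromosome 11 the highest were in MACROD1, an ADP-ribosylhydrolase gene (64120617, 3 of 11 and 6 of 13), at 57985617 (6 of 16 and 6 of 17) and in ATL3 (63639982, 5 of 18 and 7 of 15), none above 37.5% over both libraries. That maximum was the lowest of the 6 chromosomes.

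The deepest sites had ordinary shares. The deepest of all 343, with 77 reads, lay 10358 bases from ANO1, a calcium-activated chloride channel gene, at 69955639 of chromosome 11, with C in 8 of 29 reads (27.6%) in library 1 and 14 of 48 (29.2%) in library 2. The next of chromosome 11, in LOC105369395 (76312207), had 8 of 37 and 7 of 25. On chromosome 8 the deepest was in SPIDR, a gene of homologous recombination repair (47719441), with 11 of 45 (24.4%) and 4 of 14 (28.6%). GPN3, a GTPase gene of RNA polymerase import, led chromosome 12 (110463017) with 4 of 17 and 13 of 36. These 2 sites show how coverage could differ by more than 2-fold between libraries, as it did at 24 of the 343 sites.

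On chromosome 9 the deepest were in PHYHD1 (128924203), with 6 of 28 and 6 of 27 reads, and PRRX2, a homeobox gene of mesenchyme (129680150), with 7 of 33 and 6 of 21. On chromosome 7 they lay 2721 bases from ASL, the argininosuccinate lyase gene (66096297, 6 of 28 and 8 of 24), and in LOC105375336 (65997748, 8 of 29 and 5 of 22). On chromosome 10 they lay near MARVELD1 (97705873, 6 of 29 and 7 of 21) and CCDC3 (12887007, 4 of 14 and 10 of 33). The second of chromosome 12 lay near RASAL1 (113141343, 5 of 22 and 6 of 21). Apart from the site near ODF1, the deepest 2 sites of each chromosome had summed shares from 21.8 to 32.1%.

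The ends of the chromosomes close the account. The first site of chromosome 7 was in CHLSN (1019056, C in 3 of 13 and 8 of 17 reads) and the last in DNAJB6, a chaperone gene (157404726, 5 of 18 and 4 of 16). Chromosome 9 began near KANK1 (746552, 4 of 10 and 3 of 12), chromosome 10 in DIP2C (392751, 6 of 18 and 5 of 12) and ended in MTG1, a mitochondrial GTPase gene (133400148, 3 of 11 and 4 of 14). Chromosome 11 began in AP2A2 (992006, 4 of 18 and 4 of 13) and ended in ZBTB44 (130307378, 4 of 11 and 5 of 17). Chromosome 12 began where ITFG2 and NRIP2 overlap (2831533, 3 of 13 and 5 of 13). Chromosome 8 ended in ARHGAP39 (144558975, 6 of 27 and 8 of 24), and chromosome 9 in EHMT1.

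Mean C shares were then set side by side by class of site. Sites in genes had a mean C share of 29.3% ± 0.637 (SD, n = 2) and sites outside genes 29.1% ± 1.04. Those in protein-coding genes had 29.3% ± 0.962 and intergenic ones 29.0% ± 0.851. The 5 sites in genes of other types stood farthest off, with 32.4% ± 3.96. Short-arm sites had 29.2% ± 2.05 and long-arm sites 29.2% ± 0.414, and sites of the outer section had 29.3% ± 0.181 against 29.2% ± 1.22 for the rest. Coding-strand thymines had 29.5% ± 0.935 and template-strand ones 30.4% ± 0.228. No test was run between these classes. The median Wilson interval of a single site over both libraries was 30.0 points wide, which limits what such means can show.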

How the data were processed

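Per the labels, the 6 libraries of CAL-62 DNA are 2 of input, 2 of pH 7.2 and 2 of pH 8.8 pull-down. The submitters' processing notes name Trim Galore, Bowtie2, MACS2 2.2.6 and build hg38; the sources used here do not give how sites were called and filtered. Per the file headers, the counts are coverage and C reads per site in each pH 8.8 library. The deposited fraction is C reads over coverage and matched the counts to within 1e-09. A second deposited table has no header for its numbers, and they were not used.

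Shares were computed from the counts with Python 3.11.15, numpy 2.4.6, pandas 2.3.3 and scipy 1.17.1, and figures were drawn with matplotlib 3.10.9. Sites were placed on the genes of the RefSeq table of the same build. Sites per chromosome and per arm were tested with two-sided exact binomial tests over 24 chromosomes and 20 chromosomes, and the libraries with two-sided Fisher exact tests over 967 sites, all adjusted by Benjamini-Hochberg at 0.05. The strand of sites was tested with 1 exact binomial test for these chromosomes. Alternatives were 1 site per cluster of sites within 50 bases, at least 15 reads, gene number or length without gene-free stretches over 500 kb as expectation, and each library alone. The calculations were tested on simulated data.

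Per chromosome, the text names the 3 sites of highest summed C share, the 2 of highest summed coverage, the first and last site and the windows with most sites. It also names close pairs, genes with more than 1 site, promoter sites and list members with a site. The chromosomes, lists and rules were chosen with earlier results of these data known. The sites of some genes are not reported here.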

Additional observations from a re-analysis of the deposited data

How the results depend on the processing

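Of the 70 settings computed, main values apart, 55 kept their direction and their side of the threshold or, for values with no test, moved by less than their spread; sizes could still shift, as for the short arm of chromosome 10 (-10.5 points, -29.7 at 15 reads). With gene number as the expectation, chromosome 11 lost its call (ratio 1.10, adjusted exact p = 0.453), chromosomes 8 (1.6) and 10 (1.47) gained one, and chromosome 12 lay below 1 (0.971). Over all 24 chromosomes, gene number called 7 above and 5 below expectation. With at least 15 reads in each library (265 sites, 89 of them on these chromosomes), chromosome 11 lost its call (1.29), and chromosomes 10 (0.609) and 12 (0.612) lay below 1. Calls over all chromosomes then numbered 7 in place of 15. For the arms, in percentage points from the expected short-arm share, chromosome 8 lost its call at 15 reads (-24.4) and chromosome 9 on gene number (-8.72). Chromosome 12, never called, turned to -1.91 with 1 site per cluster, -12.1 at 15 reads and -1.04 on gene number. At 15 reads, mean coverage was 20.1 by construction and 60.7% of the 89 sites lay in genes. Of all 343 sites, 53.9% lay in protein-coding genes. The cause of the other shifts was not tested. Leaving out chromosome 19, chosen after seeing the data, changed no call on these chromosomes. Each library alone gave a mean share of 28.7 to 29.8% and a mean coverage of 15.5 to 16.8 reads. No paired analysis was possible because only values of the pH 8.8 libraries were analysed, so no library of another group shares their replicate numbers here. At 10 to 48 reads per site, counts limit every single share to wide intervals.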
